A study of Rattus norvegicus with 32 samples.

Results

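The genes described here are those whose symbol marks them as an interleukin, chemokine, tumour necrosis factor (TNF) or interferon family member, a colony stimulating factor, a suppressor of cytokine signalling or an NF-kB subunit or inhibitor. They were chosen by symbol: names beginning with Il and a digit, Ccl, Ccr, Cxc, Cx3c, Tnf, Ifn, Socs, Nfkb or Csf. Of 5022 genes with 1 symbol on the array, 92 matched, and the rule set aside 6 of them (Il2, Ifng, Socs1, Ccl20, Cxcl2 and Il18), which left 86 genes. All 86 passed the filter on missing values. The 6 set aside are no random sample: 4 of them passed the test over any time after hemorrhage, so the counts below describe the 86 and not the whole family.

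Lung RNA came from male Sprague-Dawley rats of 280 to 300 g, a laboratory strain with no transgene or deletion named in the labels. Bled rats carried implanted catheters and a telemetry device and lost 40% of their estimated blood volume, and were killed for lung RNA in an early period (1, 3 and 6 h after bleeding), after 16 h, or in a late period (24, 48 and 72 h). Sham rats had the same implants and were not bled. Control rats had no implants. Isoflurane was used at the implantation, and the rats of the timed groups were killed under Nembutal. The arrays held spotted cDNA and compared each lung with a pool of RNA from the organs of untreated rats, of which the labels count 10 and name 9. Every value below is a log2 ratio of lung over that pool after subtraction of the array's median, so 0 is the median spot and a difference of 1 is a doubling. A ratio to the pool compares a gene with itself in other organs and says nothing of how abundant the gene is beside another gene.

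Interleukins, chemokines and TNF family ligands are secreted or membrane-bound signals that immune, epithelial and endothelial cells use to recruit and activate one another through surface receptors, some of them shared between ligands. Many of these ligand genes are switched on by NF-kB, a transcription factor held in the cytoplasm by inhibitors such as Nfkbib until a receptor signal releases it. Interleukin receptors signal mainly through JAK kinases and STAT factors, and Socs proteins are induced by that pathway and dampen it. After blood loss the lung is a known site of neutrophil accumulation, and cytokines and chemokines are the signals that steer it.

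The analysis used 30 of 32 arrays: 3 control, 5 sham, 3 each at 1, 3, 24, 48 and 72 h, 5 at 6 h and 2 at 16 h. Sham replicate 2 and 16 h replicate 3 were left out because genes of liver stood high on them, with mean levels of 2.84 and 2.79 over 12 liver markers against at most 0.38 on any other array. The sources do not say which dye marked the lung. The direction is therefore likely rather than known. It rests on the type II cell markers (surfactant genes and others, 6 of 8 measured), whose mean per array lay at 0.79 to 2.38 on the 30 arrays. Over these arrays single markers averaged up to 2.98 (Sftpc), and Napsa alone lay below 0, at -0.52. Nothing in the labels numbers the animals or says when sham lungs were taken, so p-values measure the spread between these samples, and time of day cannot be told apart from treatment. In whole lung, fewer cells of a type and less RNA per cell cannot be told apart either.

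In lung that had not been bled, the 8 control and sham arrays placed the 86 genes around the middle of the array. Their median level was 0.01, against -0.02 over all 5993 features tested, and 44 of the 86 lay above 0. Only 3 had a mean level above 1 and 11 lay below -1; were the ratio to run the other way, these 11 would lie above 1, the 3 below -1, and every sign and order below would turn. Nfkb1, the p105 precursor and p50 subunit of NF-kB, was at 2.08 ± 0.46 (SD, n = 8). Cxcl3, a chemokine that attracts neutrophils, was at 1.35 ± 0.48, and Il6st, the signalling chain shared by the interleukin 6 family of receptors, was at 1.07 ± 0.32. At the other end, the 11 genes below -1 included Tnfrsf11b (osteoprotegerin, a decoy receptor) at -1.87 ± 0.50, Tnf itself at -1.68 ± 0.52 and Il6 at -1.45 ± 0.71. The spread was wide for a part of the genes: Il13ra2 was at -1.64 ± 1.12 and Ifngr2 at -1.01 ± 1.22, so their place in this order differs from that of their neighbours by less than the SD. Across all 30 arrays the median SD of the 86 genes was 0.52, against 0.50 over all features. Of the classes, the interleukins had 6 of 17 above 0 and the interleukin receptors 8 of 17, while 9 of 16 chemokines, 6 of 9 chemokine receptors and 3 of 3 NF-kB genes lay above 0.

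**Figure D1:**
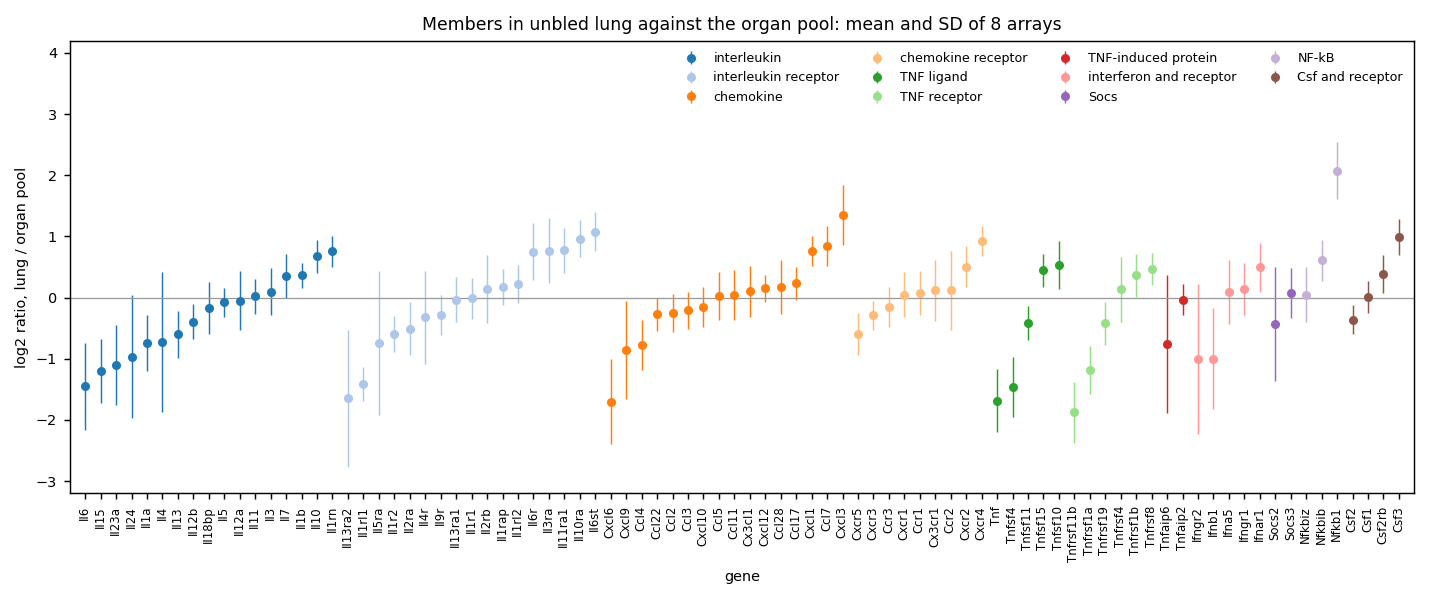
Level of each of the 86 genes in unbled lung. The vertical axis is the log2 ratio of lung over the organ pool, points are means of 8 control and sham arrays, bars are SDs, colours are gene classes and genes are sorted within a class. In the likely direction of the ratio Nfkb1 stands highest at 2.08, and 44 of the 86 points lie above 0.

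Each comparison asked whether the lung levels of these genes differed from sham at a given time after bleeding. Differences were tested with limma in 1 fit over 9 groups, and a call is a Benjamini-Hochberg adjusted p under 0.05 over all 5993 features. Few of the 86 genes were called at any time, and their share exceeded that of all features only in early against late lung. At 3 h, 2 of 86 genes were called (2.33%), against 2.80% of all features. The count was 1 of 86 (1.16%) at 24 h against 3.55%, and 1 of 86 at 48 h against 1.17%. At 72 h it was 3 of 86 (3.49%) against 5.91%. At 1 h and 6 h limma called 0 of the 86 and 0% of features, and at 16 h it called 0 of the 86 and 0.0667% of features. In the mean of the 7 times 2 genes were called (2.33%) against 3.42%, and in the joint test over any time 2 were called against 5.69%. The largest count came from early lungs (mean of 1, 3 and 6 h) against late lungs (mean of 24, 48 and 72 h): 7 of 86 (8.14%), against 7.04% of all features. With both left-out arrays returned to the fit, these counts were 0 at each time and in the joint test, 2 in the mean of the 7 times and 3 in early against late.

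Counts at an unadjusted p under 0.05 lay near the background as well. They were 7 of 86 at 1 h (8.14%, against 10.8% of features), 17 at 3 h (19.8% against 22.4%) and 11 at 6 h (12.8% against 18.7%). At 16 h, with 2 arrays, 7 genes passed (8.14% against 14.0%). At 24 h 20 passed (23.3% against 19.9%), at 48 h 15 (17.4% against 16.2%) and at 72 h 18 (20.9% against 22.4%). For the mean of the 7 times 13 passed (15.1% against 23.0%), for any time 23 (26.7% against 31.0%) and for early against late 21 (24.4% against 24.7%). The genes did not shift as a body: their median difference from sham ran from -0.03 at 3 h to 0.11 at 24 h, and that of all features from -0.01 to 0.04. Between 43 and 52 of the 86 lay above sham at each time.

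**Figure D2:**
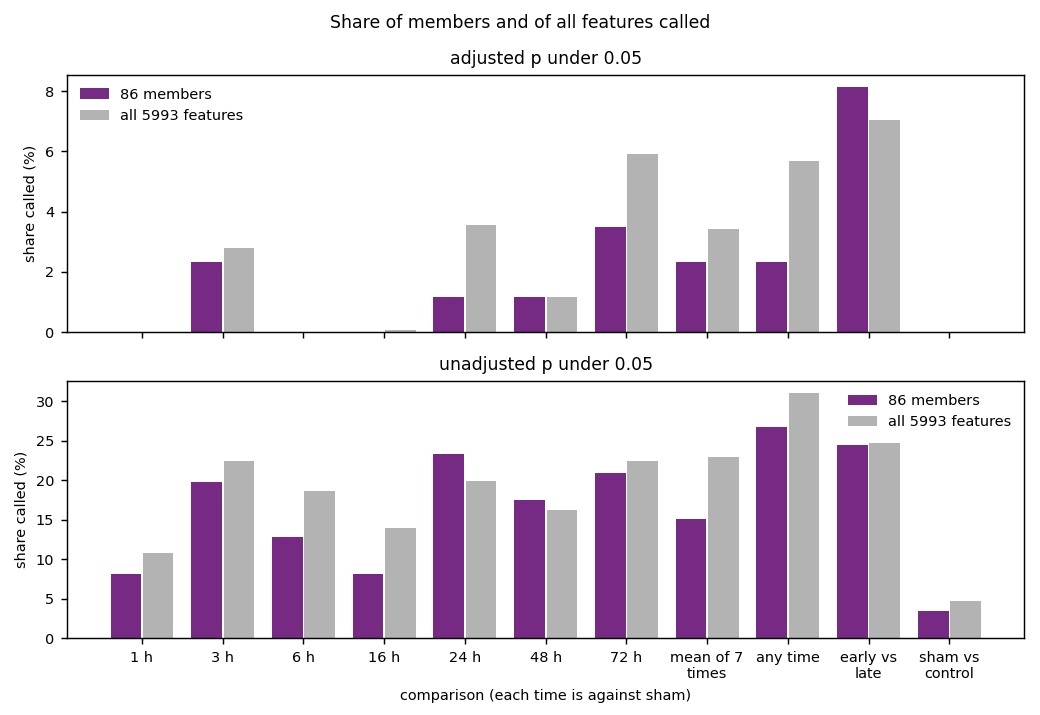
Share of genes called in each comparison. The upper panel counts adjusted p under 0.05 and the lower panel unadjusted p under 0.05; purple bars are the 86 genes, grey bars all 5993 features, and the vertical axis is percent. The purple bar reaches 8.14% in early against late lung, beside 7.04% for all features.

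**Figure D3:**
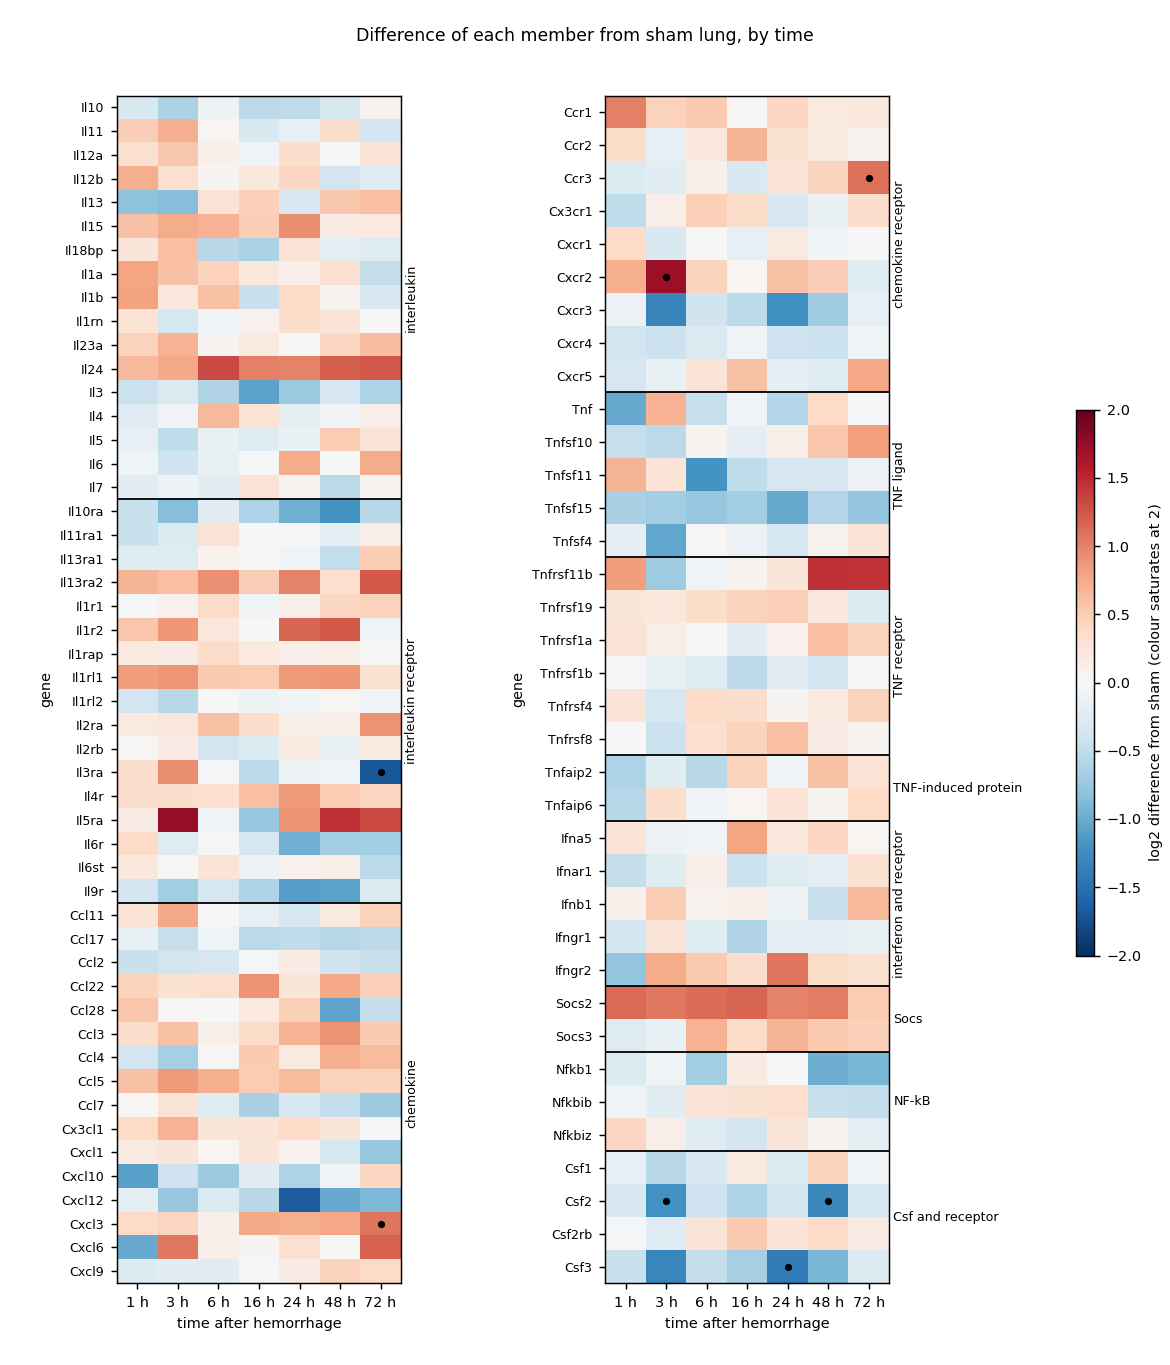
Difference of each gene from sham at each of 7 times, as log2 difference in colour (red higher, blue lower, saturating at 2), with genes grouped by class. Black dots mark the 7 differences with an adjusted p under 0.05: Csf2 and Cxcr2 at 3 h, Csf3 at 24 h, Csf2 at 48 h, and Ccr3, Il3ra and Cxcl3 at 72 h.

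Ccr3 and Il6r gave the clearest differences, in opposite directions, between early and late lung. Ccr3 is the eotaxin receptor, carried by eosinophils, basophils and some T cells. On the 11 early arrays it was at -0.62 at the lowest, -0.06 at the median and 0.42 at the highest, and on the 9 late arrays at -0.26, 0.49 and 1.60. Late arrays were thus the higher ones with some overlap, and early minus late was -0.73 ± 0.16 (SE, limma adjusted p = 0.0108). At 72 h the 3 arrays were at 0.68, 1.60 and 0.91. The 5 sham arrays were at 0.37, -0.42, 0.25, -0.21 and -0.15, below each of the 3. The 72 h difference was 1.09 ± 0.26 (adjusted p = 0.0189), and Ccr3 was also called over any time (F = 4.84, adjusted p = 0.0383). Leaving out 72 h replicate 2 or 3 ended the 72 h call, with differences of 0.83 and 1.17. The joint call was lost in 12 of 27 omissions, most of all without 72 h replicate 2 (adjusted p = 0.128). The early-late call was kept in all 20 omissions of an array and in all 10 other settings tried.

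Il6r encodes the ligand-binding chain of the interleukin 6 receptor. Its early arrays ran from 0.03 over a median of 0.62 to 1.43, and its late arrays from -0.74 over -0.26 to 0.58. Early minus late was 0.80 ± 0.20 (adjusted p = 0.0182), and this call too was kept in all 20 omissions and all 10 settings. At 24 h the arrays were at -0.26, -0.24 and -0.67, against 0.37, 1.17, -0.19, 0.61 and 0.91 in sham. All 3 lay below the 5 sham arrays, and the difference of -0.96 ± 0.32 was not called (adjusted p = 0.0883). Il6st, the partner chain, was at -0.55 ± 0.26 from sham at 72 h, not called (adjusted p = 0.215) and -0.29 without replicate 3, with 0.41 and -0.01 on 72 h replicates 2 and 3 and 1.10 on replicate 1.

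**Figure D4:**
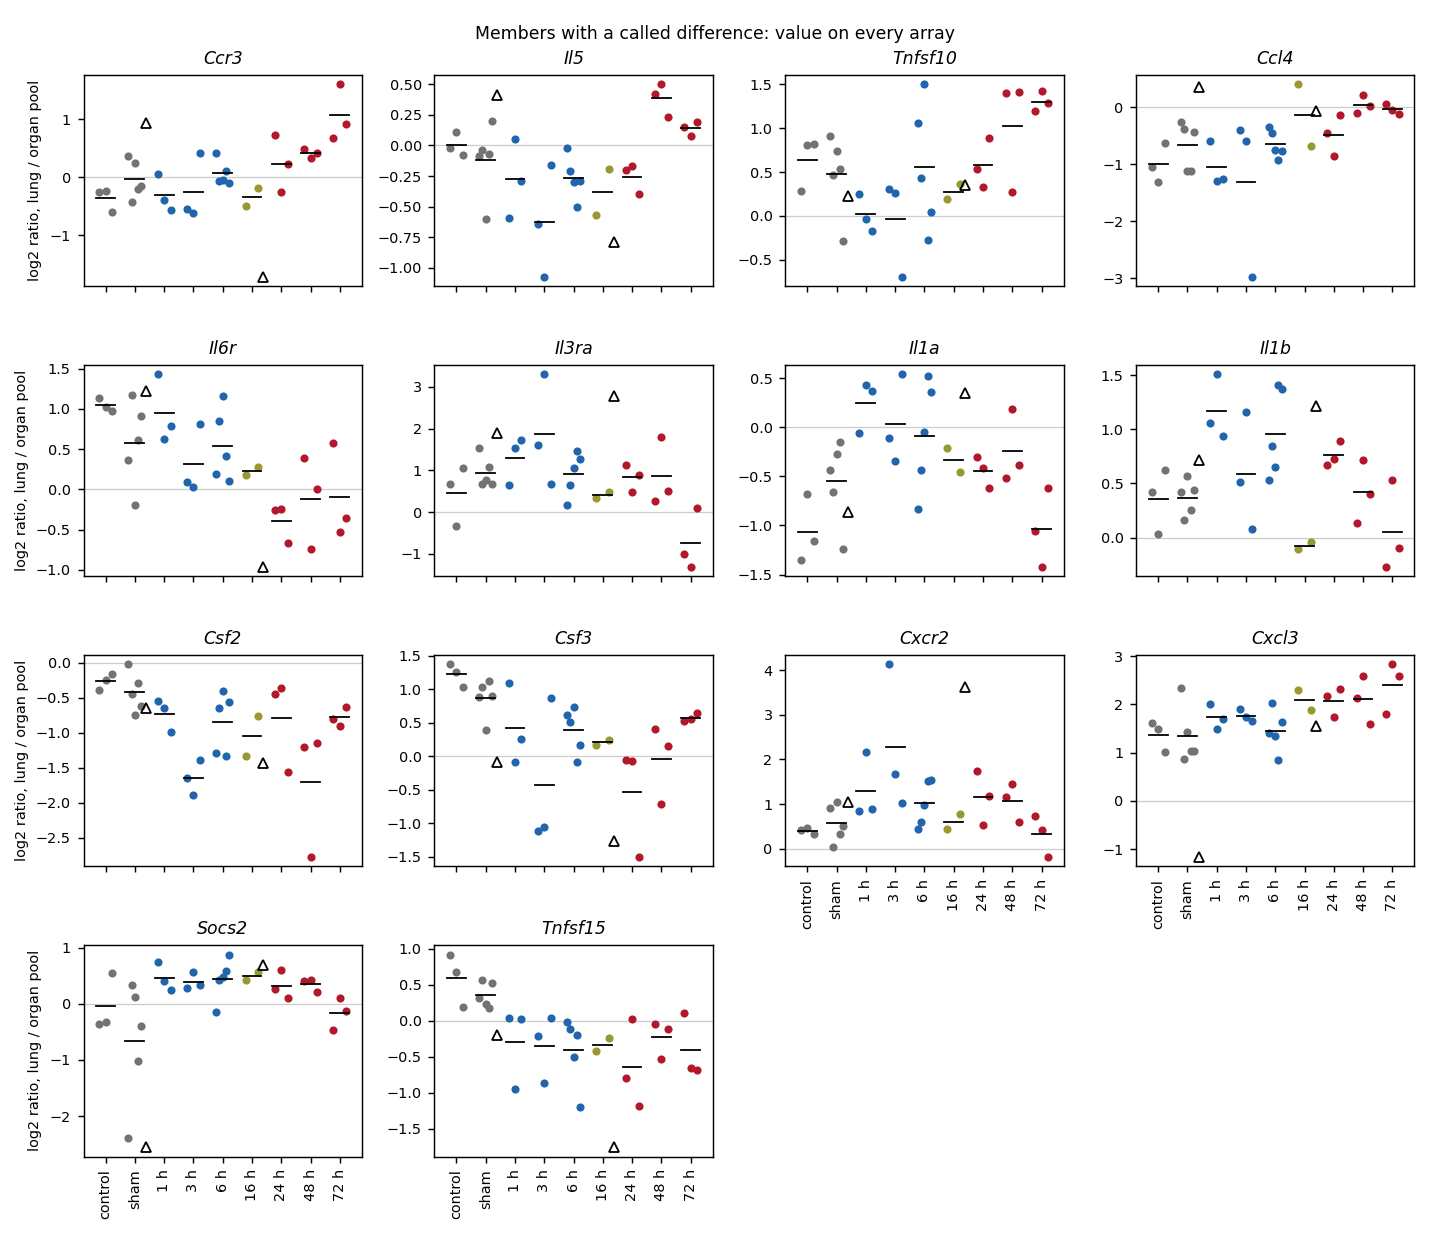
Values of the 14 genes with a called difference on every array. The vertical axes are log2 ratios of lung over the organ pool, dots are arrays (grey control and sham, blue 1 to 6 h, olive 16 h, red 24 to 72 h), bars are group means and open triangles are both left-out arrays. In Ccr3 the 3 arrays at 72 h lie from 0.68 to 1.60, above all 5 sham arrays.

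The promoters of these genes were read from RefSeq (build GRCr8) as the 250 bases before each gene's start, which was possible for 65 of the 86. The sequences of Ccr3 and Il6r are shown because these genes had the early-late differences that held in every setting, and that of Csf2 because it was called at 3 h and at 48 h. The motifs below were searched on both strands: the kappaB consensus bound by NF-kB, TTCNNNGAA (the palindrome bound by STAT factors) and TGANTCA (bound by AP-1). Capitals mark a match, and each window is given in the direction of the gene, at chr8:132499999-132500248 on the plus strand for Ccr3, chr2:177645210-177645459 on the minus strand for Il6r and chr10:38889674-38889923 on the minus strand for Csf2.
Ccr3: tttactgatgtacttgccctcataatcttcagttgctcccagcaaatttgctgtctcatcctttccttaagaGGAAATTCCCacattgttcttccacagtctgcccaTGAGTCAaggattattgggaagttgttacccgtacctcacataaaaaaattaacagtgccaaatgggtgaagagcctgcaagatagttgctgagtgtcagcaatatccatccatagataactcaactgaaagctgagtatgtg
Il6r: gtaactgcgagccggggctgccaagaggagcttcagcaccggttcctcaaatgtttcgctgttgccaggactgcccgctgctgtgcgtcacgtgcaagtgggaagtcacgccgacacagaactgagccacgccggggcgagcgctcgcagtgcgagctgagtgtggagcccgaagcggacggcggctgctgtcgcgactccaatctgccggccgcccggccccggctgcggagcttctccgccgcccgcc
Csf2: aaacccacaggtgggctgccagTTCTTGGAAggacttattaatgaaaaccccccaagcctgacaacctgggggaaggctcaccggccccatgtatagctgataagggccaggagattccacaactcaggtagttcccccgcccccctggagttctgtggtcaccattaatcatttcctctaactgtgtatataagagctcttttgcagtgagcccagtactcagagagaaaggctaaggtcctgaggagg
The Ccr3 window held a kappaB match starting 178 bases before the gene and a TGANTCA match starting 143 bases before it. The Csf2 window held 1 TTCNNNGAA match, 228 bases before the gene, and the Il6r window held none of these letters. The kappaB consensus was found in 12 of 65 windows (18.5%), against 967 of 27457 rat promoters (3.52%). TGANTCA was found in 10 (15.4%, against 6.36% of all) and TTCNNNGAA in 3 (4.62%, against 7.52%). The 12 genes with a kappaB match had median differences from sham of -0.06 to 0.44 over the 7 times, against -0.06 to 0.19 in the 53 without. Early minus late their median was -0.36 against 0.08, and 1 of the 12 and 5 of the 53 were called there. These are matches of letters in a window and were not tested against the differences.

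Among the interleukins, 2 of 17 were called in early against late lung (11.8%, against 7.04% of all features), 1 in each direction. Il1a, which encodes interleukin 1 alpha, an alarm signal released by damaged cells, was at -0.06, 0.43 and 0.37 on the 1 h arrays. In sham it was at -0.44, -0.66, -0.27, -0.15 and -1.24, and at 72 h at -1.06, -1.42 and -0.62. The 1 h arrays lay above all sham arrays, with a difference of 0.79 ± 0.30 that was not called (adjusted p = 0.382). Early minus late was 0.63 ± 0.19 (adjusted p = 0.0383); the call was kept in 8 of 20 omissions, which gave 0.55 to 0.70. Its neighbour on the chromosome, Il1b, the interleukin 1 made by activated macrophages and neutrophils, was at 1.06, 1.51 and 0.94 at 1 h. Sham was at 0.42, 0.16, 0.57, 0.25 and 0.44 and 16 h at -0.11 and -0.04. Il1b thus stood above every sham array at 1 h and below every sham array at 16 h. The 1 h difference was 0.80 ± 0.25 (adjusted p = 0.278), the 6 h difference 0.59 ± 0.22 (adjusted p = 0.165) and the 16 h difference -0.45. Neither the 1 h nor the 6 h difference was called, while the joint test over any time was (F = 4.67, adjusted p = 0.042). That joint call was lost in 14 of 27 omissions, the highest adjusted p being 0.0863 without 72 h replicate 3. On the left-out 16 h array Il1b was at 1.22, and with both left-out arrays returned the joint test gave an adjusted p of 0.169.

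Il5, the growth factor of eosinophils, was higher in late lung than in early lung. At 48 h it was at 0.42, 0.50 and 0.23 and at 72 h at 0.15, 0.08 and 0.19. At 24 h it was at -0.20, -0.17 and -0.40, within the range of the early arrays, which ran from -1.07 over a median of -0.29 to 0.05. The 48 and 72 h arrays, 6 in all, lay above all 11 early arrays. Sham was at -0.09, -0.04, -0.60, -0.07 and 0.20, and control at -0.02, 0.11 and -0.08. The 48 h arrays lay above all sham arrays, the 72 h arrays lay within the sham range, and some early arrays lay below it. Il5 was not called against sham at any single time. Early minus late was -0.48 ± 0.13 (adjusted p = 0.0254). The call was kept in 19 of 20 omissions, and without 48 h replicate 1 the value was -0.47 (adjusted p = 0.0503). With all 32 arrays it was not called (adjusted p = 0.05), nor with the replicate number as a block (0.059). Markers of eosinophils and their relatives were not listed separately. The 6 mast cell markers measured did not move together. Their mean level ran from -0.75 to 0.10 in sham, from -0.27 to -0.09 at 48 h, where Il5 was highest, and from 0.00 to 0.44 at 72 h. The median difference from sham was 0.0080 at 48 h, with 3 of 6 above sham, and 0.19 at 72 h, with 4 of 6 above. Mcpt10, a mast cell protease, was the 1 marker called, at 48 h (1.63, kept in 2 of 8 omissions) and 72 h (2.14, kept in 8 of 8), while Tpsb2, a tryptase, was at -1.12 at 48 h. With Mcpt10, 1 of 6 markers was called (16.7%), against 1.17% of features at 48 h and 5.91% at 72 h. Early minus late 5 of the 6 lay above 0 and Mcpt10 at -0.78, which was a call (limma adjusted p = 0.0452, kept in 8 of 20 omissions). Mcpt10 was also called in the mean of the 7 times (1.18, limma adjusted p = 0.0133) and over any time. Whether a change in mast cells has a part in the late Il5 and Ccr3 values was not tested.

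Among the interleukins not called in any comparison were Il6, Il10 and Il1rn. Il6, the inducer of the acute phase response, was at -0.56, -0.39 and -0.06 at 72 h and at -0.72, -0.83, -1.26, -0.84 and -1.75 in sham. The 72 h arrays all lay above the sham arrays, by 0.74 ± 0.36 (adjusted p = 0.220), and early minus late was -0.70 ± 0.22 (adjusted p = 0.0559; called in 4 of 20 omissions). Il10, which restrains macrophages, was at 0.01, -0.31 and 0.39 at 3 h, a difference of -0.64 ± 0.24 (adjusted p = 0.121), which passed the threshold in 2 of 8 omissions of an array. Its receptor Il10ra was lowest at 48 h, with 0.27, -1.24 and 0.54 and a difference of -1.20 ± 0.36 (adjusted p = 0.0953); without replicate 2, the lowest array, it was -0.65. Il1rn, the natural antagonist of interleukin 1, differed from sham by -0.35 to 0.36 over the 7 times. Il24 was above sham at every time by 0.66 to 1.32, with a mean difference of 1.03 ± 0.36 that was not called (adjusted p = 0.102). Sham replicate 1 was at -3.38 and the other sham arrays at -0.81 to -0.32. Without replicate 1 the mean difference of Il24 was 0.47 (adjusted p = 0.431), and the single times lay 0.10 to 0.76 above sham.

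Among the 17 interleukin receptors, Il3ra fell at 72 h (5.88% of the class called, against 5.91% of all features). Il6r and Il3ra were called in early against late (11.8%, against 7.04%). Il3ra, the alpha chain of the interleukin 3 receptor, was at -1.01, -1.31 and 0.09 at 72 h, against 1.53, 0.66, 0.77, 1.08 and 0.67 in sham. The groups did not overlap, and the difference was -1.69 ± 0.47 (adjusted p = 0.0338). It was lost without sham replicate 1 or 5 and without any of the 3 arrays at 72 h, which gave -2.10 to -1.41. It rests in part on a spot with a ratio at or below 0.05, where the log2 value is coarse: with such ratios set to missing the difference was -0.69 (adjusted p = 0.445). Early minus late was 1.05 ± 0.29 (adjusted p = 0.0305), and 0.71 (adjusted p = 0.169) without ratios at or below 0.05; it was kept in 13 of 20 omissions, which gave 0.81 to 1.24. An early array, 3 h replicate 2, was at 3.30, the highest of the 30.

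Of the 4 colony stimulating factor genes and receptors, 1 was called at each of 3, 24 and 48 h (25%, against 2.80%, 3.55% and 1.17% of all features). Each of these calls was a fall. Among all features 105 of 168 calls at 3 h were falls, 162 of 213 at 24 h and 52 of 70 at 48 h. Csf2, or GM-CSF, which supports granulocytes and alveolar macrophages, was at -1.64, -1.89 and -1.38 at 3 h and at -1.20, -2.77 and -1.15 at 48 h. Sham was at -0.02, -0.44, -0.75, -0.28 and -0.61, and control at -0.38, -0.25 and -0.16. At both times all 3 arrays lay below the 8 unbled arrays. The differences from sham were -1.22 ± 0.32 at 3 h (adjusted p = 0.041) and -1.28 ± 0.32 at 48 h (adjusted p = 0.0455). At the other times Csf2 was -0.62 to -0.30 from sham, with no call. The 3 h call was kept only without sham replicate 4 or 3 h replicate 3, and the values ran from -1.34 to -1.09. The 48 h call was kept only without sham replicate 4, and without 48 h replicate 2 the value was -0.75.

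Csf3, or G-CSF, the main growth factor of neutrophils, was at -0.05, -0.07 and -1.50 at 24 h, below the sham arrays at 0.89, 1.03, 0.39, 1.12 and 0.90. The difference was -1.40 ± 0.38 (adjusted p = 0.0415). It was lost without sham replicate 1, 3, 5 or 6 and without 24 h replicate 3, where it was -0.92 (adjusted p = 0.302). At 3 h Csf3 was at -1.11, -1.06 and 0.87, so 2 of 3 arrays lay below all sham arrays and 1 among them, and the difference of -1.30 ± 0.38 was not called (adjusted p = 0.0585), though it was in 2 of 8 omissions. At 72 h it had values of 0.52, 0.55 and 0.65. Csf1, the macrophage growth factor, differed from sham by -0.56 to 0.44 with no call, and its 4 spots, from a pair of probes, spread by a median of 0.62. Csf2rb, the receptor chain shared with interleukin 3 and interleukin 5, differed by -0.26 to 0.53.

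Of the 16 chemokines, 1 was called against sham, Cxcl3 at 72 h (6.25%, against 5.91% of all features). Its arrays there were at 1.80, 2.83 and 2.59, against 2.35, 0.86, 1.42, 1.03 and 1.03 in sham. Sham replicate 1 lay within the range of the 72 h arrays, and the difference was 1.07 ± 0.31 (adjusted p = 0.0444). The call was kept only without sham replicate 1 or 72 h replicate 1, and the values ran from 0.85 without 72 h replicate 2 to 1.37. Cxcl1, a close relative that attracts neutrophils through the same receptor, lay lower at that time: its 72 h arrays were at 0.15, -0.09 and 0.06 and its sham arrays at 0.56, 0.80, 0.82, 1.05 and 0.78. The difference of -0.76 ± 0.26 was not called (adjusted p = 0.0748), although the groups did not overlap.

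Ccl5, or RANTES, which attracts T cells and monocytes, lay above sham at every time. At 3 h it was at 0.82, 1.09 and 0.83 and in sham at -0.80, 0.11, 0.28, 0.32 and 0.40. The 3 h difference was 0.85 ± 0.26 (adjusted p = 0.062) and the mean over the 7 times 0.60 ± 0.17 (adjusted p = 0.0528), both just short of a call. Sham replicate 1 stood lowest, and without it the differences were 0.64 at 3 h and 0.39 in the mean (adjusted p = 0.131 and 0.238). Cxcl10, an interferon-induced attractant of T cells, was at -0.26, -1.76 and -1.88 at 1 h, a difference of -1.09 ± 0.33 (adjusted p = 0.278) with 1 array within the sham range. Cxcl12, which retains leukocytes through Cxcr4, was at -1.02, -0.40 and -3.28 at 24 h and between -0.16 and 0.46 in sham. Its difference of -1.67 ± 0.55 was not called (adjusted p = 0.0839), and without replicate 3 it was -0.81. Ccl4, or MIP-1 beta, was called between early and late lung (-0.84 ± 0.25, adjusted p = 0.0364). Its early arrays ran from -2.97 over -0.74 to -0.34 and its late arrays from -0.85 over -0.10 to 0.22. The lowest, 3 h replicate 3, stood far from the rest, and without it the value was -0.57, still called. Over the 20 omissions the call was kept in 8. Ccl3, its neighbour on the chromosome, had a difference of -0.36 in the same comparison (adjusted p = 0.350), and -0.15 without 3 h replicate 3. Ccl2, or MCP-1, the monocyte attractant, was -0.44 to 0.16 from sham over the 7 times.

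Among the 9 chemokine receptors, Cxcr2 was the 1 called at 3 h (11.1%, against 2.80% of all features). Cxcr2 is the receptor by which neutrophils respond to Cxcl1 and its relatives. Its 3 h arrays were at 4.13, 1.68 and 1.02 and its sham arrays at 0.92, 0.04, 1.05, 0.32 and 0.52. The 3 h array at 1.02 lay just within the sham range and the difference of 1.71 ± 0.47 (adjusted p = 0.0483) leaned on replicate 1, without which it was 0.78 (adjusted p = 0.286). The call was also lost without sham replicate 1, 3, 5 or 6 and without 3 h replicate 2. Cxcr1, the neighbouring gene and the other receptor of this kind, was -0.31 from sham at 3 h with no call, and -0.055 without 3 h replicate 1. Of the 10 neutrophil markers 5 were measured, and their mean level was -0.30 to 0.40 on the sham arrays, 0.50 to 1.02 at 3 h and 0.40 to 1.65 at 72 h. The list's mean was carried by Mmp8, a neutrophil granule enzyme, and S100a9, a calcium-binding protein of neutrophils and monocytes. They were 2.47 and 1.93 from sham at 3 h and 4.37 and 1.94 at 72 h. Of these only Mmp8 at 72 h was called (limma adjusted p = 0.00164), 1 of the 5 measured (20%, against 5.91% of features). The other 3 markers lay at -0.47 to 0.36 at 3 h and -0.32 to 0.07 at 72 h, and the median of the 5 at 72 h was 0.070. Cxcr2 was at 0.73, 0.43 and -0.18 at 72 h. The part of neutrophil number in the Cxcr2 and Cxcl3 differences was not tested. Ccr1 was 1.00 ± 0.31 above sham at 1 h (adjusted p = 0.278), and 0.62 without 1 h replicate 2. Cxcr3, a receptor of T cells, was at -0.93, -3.92 and 0.08 at 3 h. Its difference of -1.31 ± 0.50 (adjusted p = 0.127) came from replicate 2, without which it was -0.15. Cxcr5 was 0.77 ± 0.25 above sham at 72 h (adjusted p = 0.0627), and none of these 3 receptors was called. Cxcr4 differed by -0.44 to -0.05, and its 4 spots spread by a median of 0.98.

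In the TNF family the signal named for it was not called at any time. Tnf was at -0.58, 0.55 and -2.47 at 3 h and at -1.76, -0.84, -1.56, -2.03 and -1.48 in sham. The 3 h arrays lay on both sides of sham, with a difference of 0.70 that was 0.0095 without replicate 2. At 1 h Tnf was at -2.08, -3.91 and -1.64, and the difference of -1.0 ± 0.53 (adjusted p = 0.500) was -0.32 without replicate 2. Tnfsf15, which encodes the ligand TL1A, was lower on every bled array than in sham: its 22 bled arrays ran from -1.20 over a median of -0.23 to 0.11, all below the 5 sham arrays at 0.31, 0.56, 0.23, 0.18 and 0.53. The mean over the 7 times was -0.74 ± 0.21 (adjusted p = 0.0486). At single times it was -1.01 at 24 h (adjusted p = 0.0649) and -0.77 to -0.59 at the other times, with no call. Being close to the threshold, the call was kept in 7 of 27 omissions, with values from -0.79 to -0.69. All 5 omissions of a sham array ended it. The left-out sham array was at -0.19, and with all 32 arrays the value was -0.71 (adjusted p = 0.0619).

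Tnfsf10, or TRAIL, which can trigger cell death through its receptors, was higher in late lung. Its early arrays ran from -0.69 over 0.25 to 1.50 and its late arrays from 0.27 over 1.19 to 1.42. Early minus late was -0.79 ± 0.22 (adjusted p = 0.0272). At 72 h its arrays were at 1.19, 1.42 and 1.28, above the sham arrays at 0.91, 0.47, 0.74, 0.54 and -0.28, with a difference of 0.82 ± 0.35 that was not called (adjusted p = 0.159). Leaving out 3 h replicate 3, 24 h replicate 3, 48 h replicate 1 or 3 or 72 h replicate 2 ended the early-late call, with values of -0.77 to -0.68. Tnfrsf11b was 1.45 ± 0.51 above sham at 72 h (adjusted p = 0.0921) and 1.47 ± 0.59 at 48 h, where 2 arrays had a value. Tnfrsf1a, the main TNF receptor, differed from sham by -0.23 to 0.61. Neither of the Tnfaip genes, which TNF induces, was called, and Tnfaip2 was -0.74 ± 0.23 in early against late (adjusted p = 0.055; called in 6 of 20 omissions).

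None of the 5 interferon genes and receptors was called by limma in any comparison, against 0% to 7.04% of all features. At an unadjusted p under 0.05 only Ifna5 passed, at 16 h (0.80 ± 0.33, adjusted p = 0.281). Ifnar1 differed from sham by -0.47 to 0.30 and Ifngr1 by -0.60 to 0.26. Of the Socs genes, Socs2, an inhibitor of growth hormone and cytokine signalling, was called in the mean of the 7 times at 1.00 ± 0.27 (adjusted p = 0.0385). Its 22 bled arrays lay between -0.46 and 0.88, with a median of 0.41, and 5 sham arrays at -2.39, 0.33, 0.13, -1.02 and -0.39. The sham arrays spread over more than the bled ones and overlapped them, and the lowest, replicate 1, carried much of the difference: without it the value was 0.57 (adjusted p = 0.171). Leaving out sham replicate 5 or 6, 16 h replicate 1 or 2 or 72 h replicate 2 also ended the call, with values of 0.91 to 1.07. Socs3, induced by interleukin 6 signalling, was 0.70 ± 0.23 above sham at 6 h (adjusted p = 0.13), where its arrays were at 0.48, 0.74, 0.98, 0.90 and 0.36.

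The NF-kB genes themselves gave 0 calls of 3 by limma in every comparison, against 0% to 7.04% of all features. Nfkb1 was at 1.02, 1.30 and 0.62 at 48 h and at 0.83, 1.14 and 1.15 at 72 h. All 6 values lay below the sham arrays at 2.62, 1.67, 2.14, 1.73 and 1.62. The differences were -0.98 ± 0.37 (adjusted p = 0.192) and -0.92 ± 0.37 (adjusted p = 0.144). Nfkbib, an inhibitor that holds NF-kB in the cytoplasm, differed from sham by -0.47 to 0.33, and Nfkbiz, an inhibitor-like nuclear protein, by -0.38 to 0.41.

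Genes around these in the same pathways were counted in lists chosen by role. Of 33 genes that carry signals to NF-kB 10 were measured, and 1 was called, in the mean of the 7 times: Tank, an adaptor of the TRAF proteins, at 0.69 ± 0.19 (adjusted p = 0.0463), a call kept in 11 of 27 omissions. That is 10% of the list, against 3.42% of features. Of 27 genes known as NF-kB targets 22 were measured. Ptgs2, the inducible cyclooxygenase, fell by 1.09 at 3 h (adjusted p = 0.0482) and by 1.22 at 24 h (adjusted p = 0.0255) and was called over any time; the calls were kept in 2 of 8 and 3 of 8 omissions. Cebpb, a transcription factor of the acute phase response, was called in early against late at 0.84 (adjusted p = 0.0232, kept in 19 of 20 omissions). Each of these counts is 1 of 22 targets (4.55%), against 2.80% of features at 3 h, 3.55% at 24 h, 5.69% over any time and 7.04% in early against late. The other 20 measured targets were not called in any comparison. Of 31 JAK and STAT pathway genes 17 were measured and limma called 0 in every comparison, against 0% to 7.04% of features. At an unadjusted p under 0.05, 5 of the 17 passed at 3 h (29.4%, against 22.4% of features) and 0 at 48 h (against 16.2%). At the other times 1 to 3 passed (5.88% to 17.6%), against 10.8% to 22.4%.

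Several markers of lung cells changed at the same times. At 72 h Sftpb and Sftpc, the surfactant proteins of type II cells, fell by 1.50 and 1.65 (calls kept in 6 of 8 and 2 of 8 omissions). They were the 2 called of 6 type II markers measured (33.3%, against 5.91% of features). The mean of the 6 was 0.79 to 1.23 there, against 1.54 to 2.38 in sham. Scgb1a1, the club cell secretory protein, fell by 2.15 (kept in 6 of 8). Of the 3 club cell markers measured, Cyp4b1 was also called, with a fall of 1.02, which made 2 of 3 (66.7%, against 5.91% of features). Cyp2f4 lay 0.21 above sham and was not called. The macrophage and monocyte list (4 of 10 measured) had a mean between 0.23 and 0.71 in sham and between -0.26 and 0.19 at 72 h. Its markers did not move together at 72 h: 2 of 4 lay above sham, and none was called. Their median difference was -0.14 and the lowest -1.72. Fcgr2a, of this list, was called higher than sham at 3 h (0.91), at 24 h (1.30) and in the mean of the 7 times (0.82). It was the 1 called of 4 in each (25%, against 2.80%, 3.55% and 3.42% of features). The T cell list (6 of 9 measured) lay between -0.46 and 0.21 in sham and between -0.54 and 0.53 at 72 h. The NK cell list (6 of 7 measured) lay between -0.62 and -0.09 in sham and above that, between -0.05 and 0.55, at 72 h. There 5 of 6 markers lay above sham, with a median difference of 0.89. At an unadjusted p under 0.05, 3 of 6 passed (50%, against 22.4% of features), none of them called by limma. The type I cell list (5 of 6 measured) lay between 1.27 and 2.16 in sham and lower, between 0.69 and 1.25, at 72 h. None of its 5 markers was above sham, and their median difference was -0.84. The 1 called (20%, against 5.91% of features) was the scaffold protein gene Akap5 (-0.98, limma adjusted p = 0.0165). The endothelium list (4 of 9 measured) lay between 0.74 and 1.06 in sham and lower, between -0.24 and 0.56, at 72 h. There 2 of 4 were called (50%, against 5.91% of features), in opposite directions: Car4 at -2.14 and Kdr at 0.86. Plvap, of this list, was called at 24 h (-1.20). Of the 2 red cell markers measured, Rhag was called at 24 h (1.55) and 72 h (1.54). Alas2 was not, at 0.18 from sham at 72 h. The part of these shifts in the differences of the 86 genes at 72 h and in late lung was not tested.

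Instrumentation without bleeding gave no called gene. In sham against control limma called 0 of the 86 and 0% of features, and 3 of 86 (3.49%) passed an unadjusted p under 0.05, against 4.71% of features. Il6 had the largest of the 3 differences: it was at -2.82, -1.96 and -1.42 in control, with sham higher by 0.99 ± 0.36 (adjusted p = 0.953), and by 0.61 without control replicate 1. Ccl2 was higher in sham by 0.51 ± 0.22 and Il3 lower, at -0.64 ± 0.30. The groups overlapped for Il6 and did not for Ccl2 and Il3. The left-out sham array was at -1.40 for Ccl2 and at -0.63 for Il3, below all control arrays in both, so with it Ccl2 would overlap. Neighbouring genes of a cluster did not all go together: the 86 genes held 15 pairs next to each other among protein-coding genes in RefSeq's table. At 3 h Cxcr2 and Cxcr1, for example, lay on opposite sides of sham, at 1.71 and -0.31. The Cxcr2 difference was 0.78 without 3 h replicate 1, and that of Cxcr1, which was not called, also shrank without it. This pair was picked after the values had been seen. Csf2 and Il3 both lay below sham at that time, by different amounts (-1.22 and -0.27).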

How the data were processed

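Lung RNA and a pool of organ RNA were compared on 2-colour arrays, 1 array per sample, with 32 samples in 9 groups taken from the sample titles. The values are log2 ratios as the authors deposited them; the dye of each channel and the way the ratios were scanned and normalized are, in the sources used here, not given, and a shift of all genes between arrays may have been removed before deposit. Each array had 13056 spots, of which 12151 to 12895 had a value; 10668 carried an accession and 2388 did not. Gene symbols came from the platform annotation. Each array was centred on its median (-0.38 to 0.06 as deposited), which leaves only differences relative to that median, and the spots of a gene were averaged, which gave 6223 features. The 5993 features that every group had measured on 2 or more arrays were fitted over 30 arrays by lmFit and eBayes of limma 3.58.1 (R 4.3.3, two-sided tests), without sham replicate 2 and 16 h replicate 3, and with no covariate. P-values were adjusted over all features within each of 11 comparisons. The number of arrays limits the precision.

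The genes, the lists and the comparisons were chosen with earlier results of these data known, so no count here is independent of them. The text names every called gene, some but not all of the 8 genes of smallest p in a comparison, and genes chosen for their role. Values of genes next to each other on the chromosome and those of Cxcr1, Il24 and Il3 at 3 h were given after they had been seen. So were those of the markers S100a9, Tpsb2, Akap5, Fcgr2a, Cyp4b1, Cyp2f4, Napsa, Car4, Kdr, Plvap, Rhag and Alas2, and the left-out arrays' values. The calculation was tested on simulated data. Alternatives were all 32 arrays with and without array weights, no centring, quantile normalization, no filter, ratios at or below 0.05 set to missing, a trend with robust variance, the replicate number as a block, a fit on the compared groups only, 1 feature per probe and leaving out each array. Motifs were counted in RefSeq windows (GRCr8).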

Additional observations from a re-analysis of the deposited data

Results flagged for a closer look

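Differences between early and late lung were tested directly, and 7 of 86 genes passed (8.14%, near the 7.04% of all features): Ccr3 (-0.73), Il5 (-0.48), Tnfsf10 (-0.79) and Ccl4 (-0.84) were lower early, and Il6r (0.80), Il3ra (1.05) and Il1a (0.63) were higher early, as log2 differences of early minus late.

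The arrays left out of the comparisons held levels outside the range of the other 30. On the left-out sham array 4 of the 85 genes measured there lay above all 30 arrays and 13 below. The 4 were Nfkbiz (2.32, against at most 0.77 elsewhere), Il1r1 (0.85, against 0.75), Il15 (0.65, against 0.03) and Tnfrsf1a (-0.033, against -0.42). On the left-out 16 h array 12 of 85 lay above and 12 below. Those above were Il1rn (2.24, against at most 1.70 elsewhere), Tnfrsf8 (1.93), Il12a (1.92), Il12b (1.86), Cx3cl1 (1.58), Ccl5 (1.45), Il1rap (1.36), Ccl22 (1.21), Il1rl1 (1.03), Il15 (0.49), Il6 (0.42) and Tnfrsf1a (-0.059). Both arrays also had the liver markers given in the report. The part of liver RNA in these levels was not tested.

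Dixon's criterion was applied to groups of 4 or more arrays, which were sham and 6 h only, with 5 arrays each. In the 28 such groups examined for the genes with a called difference, 0 had an array that the criterion flagged. With 5 arrays it flags only an array whose gap to the next takes up most of the group's range. Arrays that carry much of a call, such as sham replicate 1 in Socs2, can therefore pass it. The groups of 2 or 3 arrays, control and all other times, could not be examined this way. Several calls at those times leaned on a single array, as given above.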

How the results depend on the processing

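Of the 18 called differences, those of Ccr3 and Il6r between early and late lung were called under all 10 alternatives and all 20 omissions of an array; the other 16 each lost the call in at least 1. Leaving out an array gave 0 to 10 genes called at 3 h, 0 to 1 at 6 h, 0 to 3 at 24 h, 0 to 1 at 48 h, 0 to 2 at 72 h, 0 to 5 in the mean of the 7 times, 0 to 9 over any time and 2 to 12 in early against late; at 1 h, at 16 h and in sham against control it gave 0. In these refits the calls among all features also moved, from 39 to 561 at 3 h, 0 to 112 at 6 h and 31 to 326 at 24 h. They ran from 2 to 99 at 48 h, 33 to 473 at 72 h and 221 to 568 in early against late. With all 32 arrays the counts were 0 at 3, 24, 48 and 72 h and over any time, and 3 in early against late. Of 6056 features 28, 113, 5, 181, 136 and 196 were called there, in the same order. With array weights they were 1 at 1 h, 4 at 6 h, 3 at 16 h, 2 at 24 h, 14 at 48 h, 11 at 72 h, 16 in the mean of the 7 times, 28 over any time and 14 in early against late, while calls among all features rose to 1085 at 48 h and 2037 over any time, against 70 and 341. Without centring the counts were 5 at 24 h and 4 over any time, beside 419 and 483 of all features. The median of all features then lay up to -0.15 from sham (24 h). Quantile normalization gave 1 at 3 h and 4 over any time, beside 102 and 443 of all features. No filter gave 1 at 3 h and 1 in the mean of the 7 times, beside 165 and 193. A trend with robust variance gave 0 at 48 h, beside 65. The fit on the compared groups only gave 0 at 3, 24 and 48 h, 1 at 72 h, 1 in the mean of the 7 times, 1 over any time and 3 in early against late, from fewer arrays. Calls among all features were then 3, 0, 3, 218, 191, 297 and 246, in the same order. Sham minus control ran from -0.14 to 1.63 for Ifngr2 and from -0.22 to 1.36 for Tnfaip6 over the omissions, below 0 in both without control replicate 1 and never called.

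The replicate numbers did not pair the arrays: deviations of same-numbered arrays correlated at a median of -0.0083 (-0.37 to 0.32), others at 0.0017, and 5 of 30 arrays matched best with their own number. With the replicate block the counts were 0 at 3, 24, 48 and 72 h and over any time, and 3 in early against late. Of 5956 features 59, 160, 3, 122, 71 and 251 were called there, in the same order. The causes of these changes were not tested. The number of arrays, 2 or 3 at most times, limits what differences could be called.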
